A study of Mus musculus with 27 samples.

Results

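The 5 dopamine receptor genes of the mouse, Drd1 to Drd5, were followed through RNA sequencing counts of frontal cortex and striatum. They were taken by gene identity, as the 5 of 52636 gene identifiers in the count tables that map to these receptors, and all 5 were found. The 27 libraries came from 129S1 mice of about 2.5 months, either wild-type or homozygous for a 4.9 kb deletion of an intergenic enhancer between H19 and Igf2 (Igf2enh-/-). The mutant allele keeps a loxP site where the fragment was removed, and it was made by ES cell targeting followed by a cross to Hprt-CRE mice. Frontal cortex was represented by 6 wild-type and 6 Igf2enh-/- libraries with 3 females and 3 males each. Striatum was represented by 7 wild-type libraries (3 female, 4 male) and 8 Igf2enh-/- libraries (4 of each sex). Each library is called by its number in the labels. The labels give 13 wild-type and 14 Igf2enh-/- libraries in all and were followed here, while the design text of the series gives 14 wild-type and 13 Igf2enh-/- mice; how the libraries map to mice is not stated.

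Dopamine receptors are G protein-coupled receptors that are divided into a pair of classes. Drd1 and Drd5 encode receptors that couple to the stimulatory G proteins Gs and Golf and raise cyclic AMP, whereas Drd2, Drd3 and Drd4 encode receptors that couple to Gi and Go and lower it. In the striatum, Drd1 marks the medium spiny neurons of the direct pathway and Drd2 those of the indirect pathway, and Drd2 is also made by cholinergic interneurons and, as an autoreceptor, by dopamine neurons of the midbrain. Drd3 is known from the islands of Calleja and the ventral striatum, Drd4 from the prefrontal cortex and the retina, and Drd5 from cortex, hippocampus and cholinergic interneurons at low levels.

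The receptor genes lie on 5 chromosomes. In RefSeq coordinates of GRCm38.p6, Drd1 occupies chr13:54051183-54055658 on the minus strand. The other receptors lie on the plus strand, Drd2 at chr9:49340360-49408177, Drd3 at chr16:43754015-43825982, Drd4 at chr7:141291974-141296464 and Drd5 at chr5:38319509-38322523. Drd4 is the receptor that shares a chromosome with the deleted fragment, at a distance of 1.31 Mb in NCBIM37. Drd2 overlaps the gene model Gm46111 and Drd5 overlaps Gm26560, and no source used here states whether the counting used strand, so reads of these overlapping genes cannot be told apart from those of the receptors. The windows from 250 bases before to 50 bases after a RefSeq start are shown for the most abundant striatal receptors, Drd1 and Drd2, and for Drd3, which had no counts in frontal cortex. They are written 5′ to 3′ on the strand of the gene, and capitals mark GC boxes (GGGCGG, searched on both strands). They span chr13:54055609-54055908, chr9:49340153-49340452 and chr16:43761971-43762270, in that order.
Drd1: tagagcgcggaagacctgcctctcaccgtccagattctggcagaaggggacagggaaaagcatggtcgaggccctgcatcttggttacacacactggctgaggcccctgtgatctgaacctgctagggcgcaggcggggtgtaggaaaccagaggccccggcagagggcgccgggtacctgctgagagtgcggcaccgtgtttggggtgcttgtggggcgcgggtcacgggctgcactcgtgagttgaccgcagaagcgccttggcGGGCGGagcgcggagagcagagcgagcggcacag
Drd2: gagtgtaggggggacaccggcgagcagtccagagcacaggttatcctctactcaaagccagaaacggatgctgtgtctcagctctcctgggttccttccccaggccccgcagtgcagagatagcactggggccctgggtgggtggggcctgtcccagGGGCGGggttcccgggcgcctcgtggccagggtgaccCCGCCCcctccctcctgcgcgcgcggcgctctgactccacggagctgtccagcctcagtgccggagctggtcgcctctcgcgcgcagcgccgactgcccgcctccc
Drd3: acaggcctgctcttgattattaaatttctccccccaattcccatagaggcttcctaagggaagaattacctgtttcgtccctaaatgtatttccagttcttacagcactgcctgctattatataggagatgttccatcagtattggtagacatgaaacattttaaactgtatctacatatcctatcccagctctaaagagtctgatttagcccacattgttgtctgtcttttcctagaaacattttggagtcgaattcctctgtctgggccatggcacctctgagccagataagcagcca
The Drd1 window held 1 GC box, as did a window at its other RefSeq start (chr13:54054731-54055030). The Drd2 window held 2 GC boxes and the Drd3 window 0. The windows of Drd4 and Drd5, which are not shown, held 3 and 2. At least 1 GC box was found in 35.7% of 32851 promoter windows of the same length. The Drd3 window held 2 CpG sites, against 23 in the Drd1 window shown, 6 at its other start, 23 in Drd2, 15 in Drd4, 38 in Drd5 and a median of 7 over all windows. No window held TATAAA, while CCAAT was found 2 times in Drd3 and 1 time in Drd4. The Drd3 start used by the window lies 8.21 kb inside the gene span given above, whose own 5′ end was not examined. These letters describe the sequence and do not show that a factor was bound.

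Total counts ran from 23686945 to 33926904 per library. Levels are given as CPM, read counts expressed relative to the size of the library and scaled by trimmed mean of M-values (TMM) factors between 0.976 and 1.04. The deletion lies between genes, and Igf2 beside it measured 52.1 to 107 CPM in wild-type and 88.2 to 171 CPM in Igf2enh-/- frontal cortex (log2 difference 0.77, adjusted p = 0.0286 by edgeR). In striatum Igf2 measured 33.8 to 44.3 CPM in wild-type and 46.3 to 261 CPM in Igf2enh-/- libraries. The lowest Igf2enh-/- striatal library was thus just above the highest wild-type striatal library. The mean was 38.3 ± 3.92 CPM in wild-type (SD, n = 7) and 78.5 ± 74.1 CPM in Igf2enh-/- striatum (SD, n = 8). The log2 difference of 0.89 did not pass by edgeR (adjusted p = 0.387). The labelled regions were compared with marker genes. A list of 10 genes of medium spiny neurons of both pathways summed to 745 to 857 CPM in frontal cortex and 4894 to 12882 CPM in striatum, with the lowest striatal sum in library 20, a wild-type male. A list of 8 cortical projection neuron genes summed to 2196 to 2452 CPM in frontal cortex. In striatum it ran from 34.7 CPM in library 22 to 1145 CPM in library 20. No marker of these lists was at 0 in all libraries. Choroid plexus markers summed to 4550 CPM in library 15, an Igf2enh-/- female striatum, against at most 363 CPM elsewhere. The receptor results in striatum are therefore given with and without library 20. Relations of the receptors to the markers are given further on, and what caused them was not tested. In such bulk tissue, fewer cells of a type and less receptor RNA per cell cannot be told apart.

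Drd1 and Drd2 dominated the receptor transcripts of the striatum, and both were far lower in the frontal cortex. Drd1 measured from 7.85 to 11.3 CPM in wild-type frontal cortex (median 8.00) and from 142 to 405 CPM in wild-type striatum (median 329). In Igf2enh-/- mice it measured 6.62 to 10.4 CPM (median 8.72) and 223 to 374 CPM (median 334). The regions did not overlap in either genotype. The fitted difference was 5.16 on the log2 scale in wild-type mice (SE 0.22, a fold of 35.8, adjusted p = 1.0e-15) and 5.18 in Igf2enh-/- mice (SE 0.22, adjusted p = 7.2e-16). Without library 20, which was the lowest striatal library for Drd1, the wild-type difference was 5.29.

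Drd2 had the wider contrast. It measured 0.653 to 1.12 CPM (median 0.990) in wild-type frontal cortex, where 17 to 29 reads per library were counted, and 134 to 375 CPM (median 298) in wild-type striatum. In Igf2enh-/- mice the values were 1.20 to 1.62 CPM (median 1.20) and 211 to 433 CPM (median 322). Every striatal library was above every frontal cortex library. The log2 difference was 8.19 in wild-type mice (SE 0.26, a fold of 292, adjusted p = 7.2e-18) and 7.92 in Igf2enh-/- mice (SE 0.25, a fold of 242, adjusted p = 5.8e-18). Without library 20 the wild-type value was 8.30.

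Drd3 was counted in striatum and was at 0 in all 12 frontal cortex libraries. A count of 0 allows up to 3 counts, or 0.0969 to 0.120 CPM in these libraries. In wild-type striatum it ran from 0.117 CPM in library 20 to 2.22 CPM in library 26 (median 0.973), from 3 to 77 counts. In Igf2enh-/- striatum it ran from 0.477 to 1.72 CPM (median 1.19). Against a floor of 3 counts per frontal cortex library, mean Drd3 was at least 9.19-fold higher in wild-type striatum, at least 10.5-fold higher without library 20, and at least 9.93-fold higher in Igf2enh-/- striatum. Drd3 passed the filter on low counts through its striatal libraries alone, so its call in the test between regions (adjusted p = 2.3e-05 in wild-type and 1.5e-05 in Igf2enh-/- mice) supports nothing further.

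Drd4 was the scarcest receptor that was counted in both regions, and it was the receptor with lower levels in striatum. It measured 0.366 to 0.614 CPM (median 0.461) in wild-type frontal cortex and 0.0783 to 0.317 CPM (median 0.242) in wild-type striatum. In Igf2enh-/- mice it measured 0.226 to 0.377 CPM (median 0.296) and 0.111 to 0.268 CPM (median 0.155). The regions did not overlap in wild-type mice and overlapped in Igf2enh-/- mice. Between 2 and 16 reads per library lie behind these values. Drd4 failed the filter, and in the fit without a filter it was lower in striatum by a log2 difference of -1.23 in wild-type mice (SE 0.26, adjusted p = 0.000263; -1.12 without library 20) and -0.89 in Igf2enh-/- mice (SE 0.28, adjusted p = 0.0145). The Igf2enh-/- call was lost without library 7 (adjusted p = 0.0504).

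Drd5 was measured at like levels in both regions. Wild-type libraries ran from 1.29 to 3.22 CPM (median 2.55) in frontal cortex and from 2.07 to 4.25 CPM (median 3.32) in striatum. Igf2enh-/- libraries ran from 2.52 to 4.33 CPM (median 3.21) and from 2.43 to 3.59 CPM (median 2.90). The regions overlapped in both genotypes. In wild-type mice Drd5 was higher in striatum by 0.46 on the log2 scale (SE 0.19, adjusted p = 0.0345), and by 0.56 without library 20 (adjusted p = 0.00596). This call was lost when library 4, 6, 14, 18, 22, 24 or 26 was left out (adjusted p between 0.0517 and 0.0885). In Igf2enh-/- mice the difference was -0.18 (SE 0.18, adjusted p = 0.374).

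**Figure D1:**
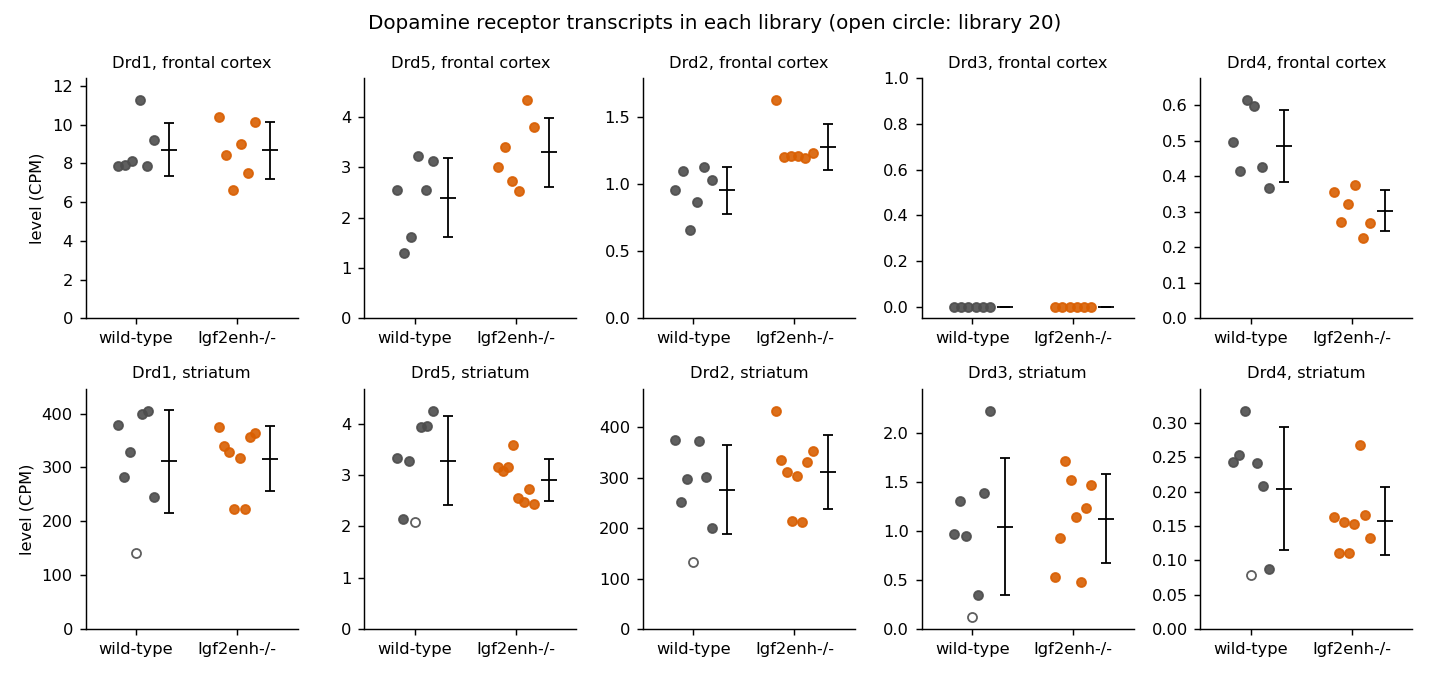
Levels of the 5 receptors in CPM (linear axes from 0, apart from the frontal cortex panel of Drd3), with a point for each library, frontal cortex above and striatum below, and the mean and SD beside each group. Drd1 lies between 6.62 and 11.3 CPM in frontal cortex and between 142 and 405 CPM in striatum, Drd3 is at 0 in all 12 frontal cortex libraries, and library 20 (open circle) is the lowest striatal library in every panel.

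These counts are read against a background in which most genes differed between regions. Of 17963 genes tested, 32.6% were called higher and 30.8% lower in wild-type striatum, and 33.2% and 31.6% in Igf2enh-/- striatum. Without a filter, as for Drd4, 15.5% of 36013 genes were called lower in wild-type mice and 16.6% in Igf2enh-/- mice. Drd3 left aside, 3 receptors were called higher in striatum and 1 lower in wild-type mice, and 2 were called higher and 1 lower in Igf2enh-/- mice. Groups that did not overlap were likewise common, at 34.5% of genes between regions in wild-type mice and 38.3% in Igf2enh-/- mice, and without a filter 9.1% of genes did not overlap and were lower in wild-type striatum, as Drd4 was. Without library 20 the shares called in either direction were 65.1% and 66.3%.

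Levels per kilobase of exon allow the receptors to be ordered within a group. In wild-type frontal cortex the order was Drd1 at 2.47 ± 0.39 CPM per kb, Drd5 at 0.853 ± 0.28, Drd2 at 0.374 ± 0.069, Drd4 at 0.175 ± 0.037 (SD, n = 6) and Drd3 at 0. The order was the same in Igf2enh-/- frontal cortex, and in neither genotype did neighbours in it overlap. In wild-type striatum the order was Drd2 at 108 ± 34.7 CPM per kb, Drd1 at 88.3 ± 27.2, Drd5 at 1.17 ± 0.31, Drd3 at 0.717 ± 0.48 and Drd4 at 0.0735 ± 0.032 (SD, n = 7). Across libraries Drd2 and Drd1 overlapped in striatum, as did Drd5 and Drd3, in both genotypes, and Drd3 and Drd4 overlapped in wild-type striatum. Within every striatal library, however, Drd1 per kilobase was below Drd2. It was 0.730 to 0.971 times Drd2 in wild-type and 0.625 to 0.777 times in Igf2enh-/- libraries. Without library 20 the wild-type means were 118, 96.3, 1.24, 0.823 and 0.0811 CPM per kb in the same order. In Igf2enh-/- striatum Drd2 stood at 122 ± 28.6 and Drd1 at 89.6 ± 17.0 CPM per kb (SD, n = 8). Lengths are those of GENCODE vM1, an earlier annotation than the one the authors counted with.

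The effect of the enhancer deletion on each receptor was tested within a region, with sex as a covariate. None of the receptors passed an adjusted p of 0.05 in either region. Of the genes tested by edgeR, 0.38% of 13936 were called in frontal cortex and 0.036% of 13875 in striatum. In the fits without a filter, used for Drd2 and Drd4 in frontal cortex and for Drd3 and Drd4 in striatum, 1.39% and 0.0293% were called. The likelihood ratio test and DESeq2 also called 0 receptors in each region. At an unadjusted p of 0.05, 3 of 4 receptors tested passed in frontal cortex (Drd2, Drd4 and Drd5) and 0 of 5 in striatum. At that cut 13.5% of all genes passed with the filter and 8.92% without it in frontal cortex, and 10.1% and 5.86% in striatum.

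In frontal cortex, Drd1 was nearly the same in both genotypes, at 8.70 ± 1.36 CPM in wild-type and 8.68 ± 1.48 CPM in Igf2enh-/- mice (SD, n = 6 each), with a log2 difference of 0.00 (SE 0.11, adjusted p = 0.995). Drd5, its partner in class, measured 2.39 ± 0.79 CPM in wild-type and 3.30 ± 0.68 CPM in Igf2enh-/- mice (SD, n = 6 each). The ranges overlapped, and the log2 difference of 0.49 (SE 0.17) did not pass by edgeR (adjusted p = 0.234). In the fit without a filter the adjusted p of Drd5 was 0.052, the nearest of any receptor to the threshold in that region.

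Drd2 was higher in every Igf2enh-/- frontal cortex library (at least 1.20 CPM) than in any wild-type library (at most 1.12 CPM). Such separation was seen in 0.33% of 33060 genes in that direction. Library 1 stood highest at 1.62 CPM, and the other 5 Igf2enh-/- libraries lay between 1.20 and 1.23 CPM. The exact permutation test of log2(CPM + 0.5) gave p = 0.00216, two-sided, for 6 against 6 libraries, the smallest this design allows. The count fit without a filter gave a log2 difference of 0.42 (SE 0.18), which did not pass (adjusted p = 0.386). These values rest on 17 to 41 reads per library.

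Drd4 had the opposite sign in frontal cortex, at 0.486 ± 0.10 CPM in wild-type and 0.303 ± 0.058 CPM in Igf2enh-/- libraries (SD, n = 6 each), or 10 to 16 and 7 to 10 reads. The highest Igf2enh-/- library (0.377 CPM) was just above the lowest wild-type library (0.366 CPM). The exact permutation test gave p = 0.00433, two-sided, and the count fit without a filter a log2 difference of -0.68 (SE 0.29, adjusted p = 0.378). The exact tests were run on 9 receptor and region pairs and are given unadjusted. No batch is given in the labels, so no value within a batch could be had.

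In striatum the receptors differed by less than their spread between libraries. Drd1 measured 311 ± 95.9 CPM in wild-type (SD, n = 7) and 316 ± 60.0 CPM in Igf2enh-/- mice (SD, n = 8), with a log2 difference of 0.00 (SE 0.19, adjusted p = 0.998) that became -0.11 (SE 0.14, adjusted p = 0.871) without library 20. Drd2 measured 276 ± 88.4 and 312 ± 72.9 CPM, with a log2 difference of 0.15 (SE 0.19, adjusted p = 0.853) and of 0.05 (SE 0.16) without library 20. Leaving out library 20 thus turned the sign of Drd1 and took away most of the difference of Drd2. The next lowest sums of the medium spiny neuron list were kept in both settings. They were in Igf2enh-/- libraries 19 (6877 CPM) and 23 (7585 CPM) and wild-type library 26 (7650 CPM). Whether the values with or without library 20 lie nearer to the effect of genotype was not tested.

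The scarce receptors of the striatum gave the same picture. Drd3 measured 1.04 ± 0.70 CPM in wild-type and 1.13 ± 0.45 CPM in Igf2enh-/- striatum, with a log2 difference of 0.09 (SE 0.40) that became -0.10 (SE 0.33) without library 20. Drd4 had a log2 difference of -0.34 (SE 0.33, adjusted p = 0.770), and -0.46 (SE 0.33) without library 20. Drd5 measured 3.28 ± 0.87 and 2.90 ± 0.41 CPM, a log2 difference of -0.18 (SE 0.16, adjusted p = 0.768), and -0.26 (SE 0.14, adjusted p = 0.559) without library 20. In the exact permutation tests of striatum the 5 receptors had p between 0.255 and 0.777, and between 0.0796 (Drd4) and 0.902 (Drd3) without library 20.

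**Figure D2:**
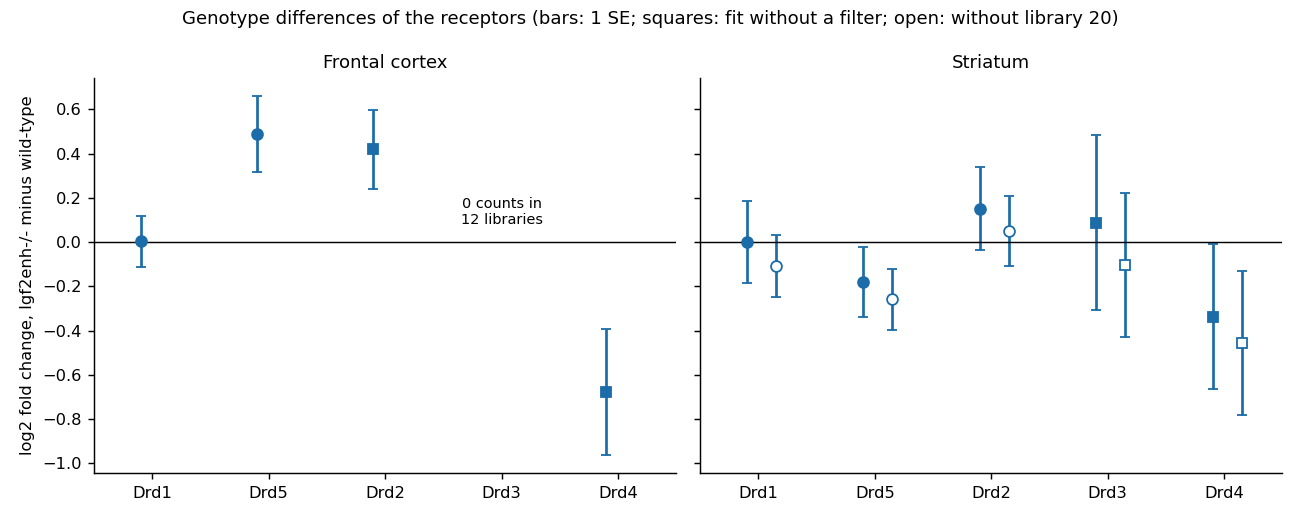
Log2 fold change of each receptor, Igf2enh-/- minus wild-type, in frontal cortex (left) and striatum (right), with bars of 1 SE; squares are receptors taken from the fit without a filter and open symbols leave out library 20. In frontal cortex Drd5 (0.49) and Drd2 (0.42) lie above 0 and Drd4 (-0.68) below it, and in striatum all values lie within -0.46 to 0.15.

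Whether the genotype effect differed between regions was tested in a fit of all 27 libraries. Drd5 was the receptor that passed an unadjusted p of 0.05 by edgeR, with a log2 difference of differences of -0.64 (SE 0.26, adjusted p = 1.00), and -0.74 (adjusted p = 1.00) without library 20. Drd1 (0.02, SE 0.27), Drd2 (-0.27, SE 0.37) and Drd4 (0.34, SE 0.39) had larger p-values. Of 17963 genes, 0 were called by edgeR, by the likelihood ratio test or by DESeq2, and 550 (3.06%) had an unadjusted p under 0.05. Drd3, at 0 in frontal cortex, was not tested.

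Receptor levels were also compared between sexes, and no receptor passed. Of the genes tested by edgeR, 0.0431% were called in frontal cortex and 0.0432% in striatum, and without a filter 0.56% and 0.041%. Of the receptors tested, 1 of 4 in frontal cortex (Drd5) and 0 of 5 in striatum passed at an unadjusted p of 0.05, as did 7.56% and 10.8% of all genes with the filter and 6.37% and 6.99% without it. The male minus female log2 difference of Drd5 in frontal cortex was 0.44 (SE 0.17, adjusted p = 0.606 by edgeR). Its means there were 1.82 CPM in wild-type females, 2.96 CPM in wild-type males, 3.05 CPM in Igf2enh-/- females and 3.55 CPM in Igf2enh-/- males (n = 3 each). In striatum Drd2 had a log2 difference of -0.34 (SE 0.19, adjusted p = 0.490), and -0.25 without library 20. The likelihood ratio test and DESeq2 called 0 receptors for sex.

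The ratio of Drd1 to Drd2 compares the direct and indirect pathway receptors within a library. In striatum the log2 ratio was near 0. It ran from 0.01 in library 14 to 0.43 in library 24 among wild-type libraries (median 0.14) and from -0.21 in library 13 to 0.11 in library 25 among Igf2enh-/- libraries (median 0.06). The genotypes overlapped. The mean was 0.17 ± 0.14 in wild-type (SD, n = 7) and 0.03 ± 0.10 in Igf2enh-/- mice (SD, n = 8), a difference of -0.14 with an exact permutation p of 0.0186, two-sided. Without library 20 the difference was -0.16 (exact permutation p = 0.0150). It rests in part on single libraries, since it was -0.10 without library 24 (exact permutation p = 0.0533) and -0.11 without library 13 (exact permutation p = 0.0396).

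In frontal cortex the log2 ratio was 2.66 ± 0.30 in wild-type and 2.36 ± 0.19 in Igf2enh-/- mice (SD, n = 6 each), a difference of -0.30 (exact permutation p = 0.0584). From raw counts with 0.5 added it was -0.44 (exact permutation p = 0.0346), where the 0.5 added is smaller beside the Drd2 values than 0.5 CPM is. Drd1 counts were 7.00 to 13.1 times those of Drd2 in wild-type and 5.50 to 8.28 times in Igf2enh-/- frontal cortex.

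**Figure D3:**
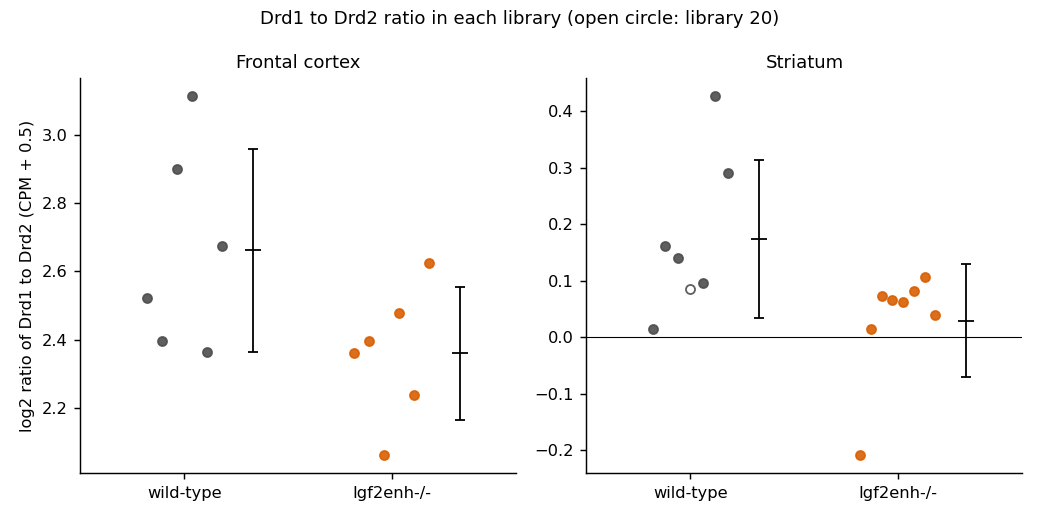
Log2 ratio of Drd1 to Drd2, from CPM with 0.5 added, in each library of frontal cortex (left) and striatum (right), with the mean and SD beside each group. The striatal libraries lie between -0.21 and 0.43, with library 24 highest and library 13 lowest, and those of frontal cortex between 2.06 and 3.11.

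Within striatum, Drd1 and Drd2 fell together as the cortical projection neuron markers rose. Over 15 libraries, log2 Drd1 and the log2 summed cortical markers had Pearson's r = -0.77 (permutation p = 0.00112, adjusted p = 0.00336) and Spearman's rho = -0.96 (permutation p = 1e-05, the smallest the permutations can give, adjusted p = 6e-05). Without libraries 22 and 14, farthest from the median of the markers, r was -0.87. Without library 20 it was -0.79. Within genotypes r was -0.78 in wild-type (exact permutation p = 0.0240, n = 7) and -0.91 in Igf2enh-/- libraries (exact permutation p = 4.96e-05, n = 8).

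Drd2 behaved alike, with r = -0.77 (permutation p = 0.00087, adjusted p = 0.00336) and rho = -0.88 (permutation p = 8e-05, adjusted p = 0.00024), and r was -0.86 without libraries 22 and 14. Within wild-type libraries r was -0.84 (exact permutation p = 0.0155, n = 7) and within Igf2enh-/- libraries -0.94 (exact permutation p = 4.96e-05, n = 8). Drd5 did not pass (r = -0.50, permutation p = 0.0567, adjusted p = 0.114, rho = -0.46), nor did Drd4 (r = -0.31, permutation p = 0.264, rho = -0.24), Drd3 (r = 0.09, permutation p = 0.756, rho = 0.04) or the Drd1 to Drd2 ratio (r = 0.17, permutation p = 0.546, rho = 0.25). The value of Drd3 moved with single libraries, to r = 0.43 without library 20 and -0.29 without libraries 22 and 14, and that of Drd4 was r = -0.03 without the latter. The 6 relations were adjusted together. Both measures of a relation are shares of the same library, and the library's composition enters each.

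Set against the medium spiny neuron list, Drd1 and Drd2 became far steadier. The SD of log2 Drd1 in striatum was 0.54 in wild-type and 0.30 in Igf2enh-/- mice, and relative to the summed list it was 0.09 and 0.05. That of Drd2 went from 0.53 and 0.35 to 0.08 and 0.08. The SDs of Drd3 (0.73 and 0.44) and Drd5 (0.36 and 0.17) did not shrink, at 0.74 and 0.55 and at 0.40 and 0.39, nor did those of Drd4 (0.19 and 0.10), at 0.36 and 0.36. Striatal Drd4 was at most 0.317 CPM, under the 0.5 CPM added before the logarithm. The SD of Drd4 was therefore held small and could hardly shrink, so it is no contrast to Drd1 and Drd2. Striatal Drd3 rested on 3 to 77 reads per library, so it is a weak contrast as well. On this scale, chosen after the data were seen, the genotype difference was -0.04 for Drd1 (exact permutation p = 0.325, n = 7 and 8) and 0.10 for Drd2 (exact permutation p = 0.0297, n = 7 and 8), the latter with p = 0.0549 by the same exact test without library 20. With the cortical markers as a covariate in the count fit, also added after the data were seen, the log2 difference of Drd2 was 0.27 (SE 0.09, adjusted p = 0.159).

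**Figure D4:**
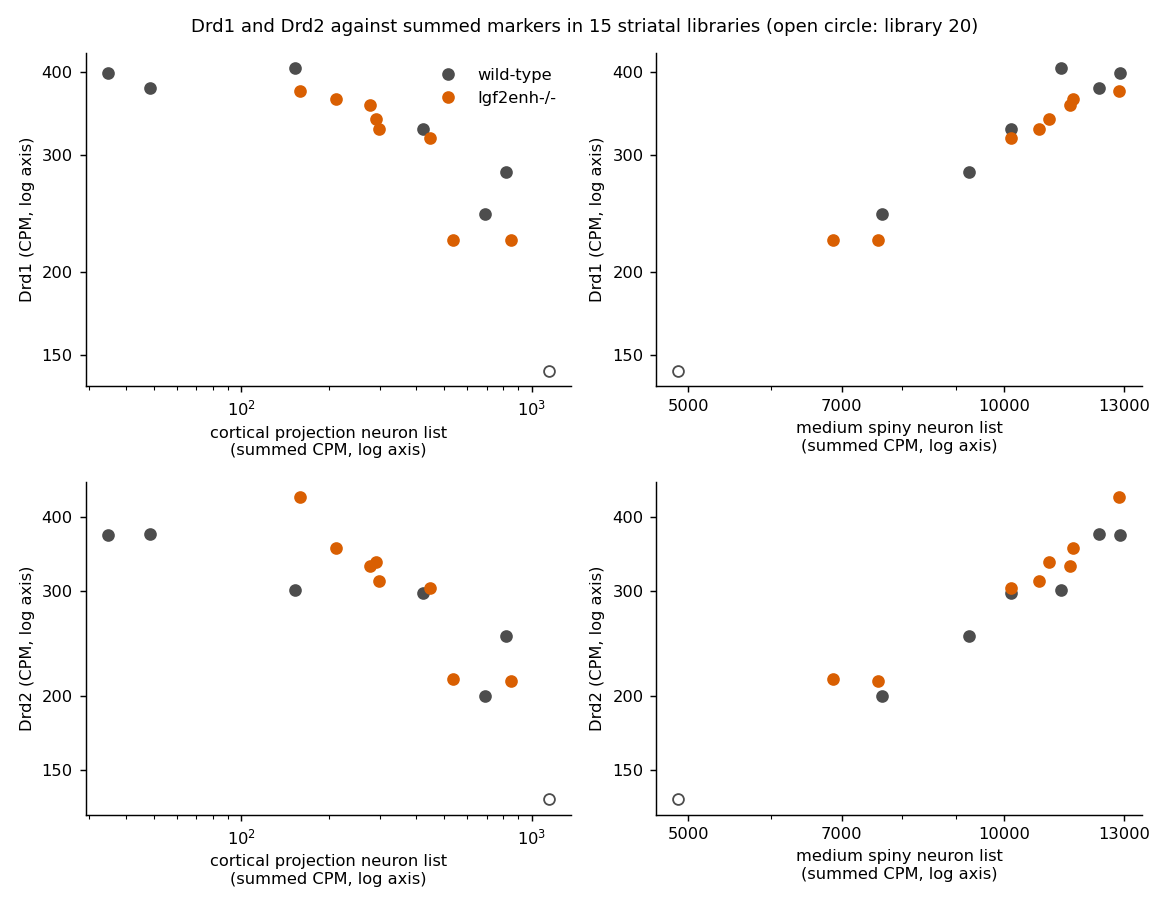
Drd1 (top) and Drd2 (bottom) in the 15 striatal libraries, in CPM on log axes, against the summed CPM of 8 cortical projection neuron genes (left) and of 10 medium spiny neuron genes (right). Both receptors are lower where the cortical sum is higher (r = -0.77 each), and library 20 (open circle) has the highest cortical sum, 1145 CPM, and the lowest medium spiny neuron sum, 4894 CPM.

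The genes whose pattern over the 27 libraries was most like each abundant receptor were found by the root mean square difference of mean-centred log2(CPM + 0.5), among 14906 genes. For Drd1 they were Penk (0.23), Ano2 (0.24), Slc35d3 (0.25), Rxrg (0.26) and Scube3 (0.27). Penk encodes proenkephalin, a neuropeptide precursor of the indirect pathway, and measured 36.7 CPM in wild-type frontal cortex and 1297 CPM in wild-type striatum. For Drd2 they were Six3 (0.24), Adora2a (0.24), Lrrc10b (0.27), Syndig1l (0.29) and Rgs9 (0.43). Adora2a encodes the adenosine receptor of indirect pathway neurons and measured 2.05 and 381 CPM in the same groups. Without library 20 the same 5 genes were found for each receptor. The likeness is a description, and most of it is the step between regions. The 0.5 CPM added limits that step for genes near 0 in frontal cortex. Six3 had means of 0.0372 CPM in wild-type frontal cortex and 77.6 CPM in wild-type striatum, and Ano2 of 0.234 and 25.4 CPM. Their likeness to the receptors therefore holds on this scale and not for the fold between regions.

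Signalling partners of the receptors were taken as a list of 72 matched genes in 8 roles, and 4 of those named here (Adcy5, Ppp1r1b, Pde10a and Rgs9) are also on the medium spiny neuron list. Between regions in wild-type mice 63 of 71 tested were called, 33 higher and 30 lower in striatum, where 63.4% of all genes were called. The median log2 difference of the list was 0.08 against 0.02 for all genes. In Igf2enh-/- mice 64 of 71 were called, 36 higher and 28 lower, against 64.9% of all genes. Without library 20 the counts were 63 and 65.

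Among the G proteins, 5 of 14 were higher and 7 lower in wild-type striatum. Gng7, the gamma subunit of the striatal Golf complex, rose by 4.26 on the log2 scale (SE 0.18), from 72.2 to 1378 CPM, while Gnas, the alpha subunit of Gs, had a difference of -1.08 (SE 0.16), from 1113 to 530 CPM. Gnao1 (0.32) was higher and Gnb1 (-0.37) lower. Among 7 adenylyl cyclases, Adcy5, the main striatal cyclase, rose by 3.53 (SE 0.16), from 146 to 1681 CPM, and Adcy3 was higher by 0.53. The other 5 were lower, with Adcy1 at -1.21 and Adcy2 at -1.73.

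Downstream of cyclic AMP, 5 of 6 protein kinase A genes were lower in striatum, with the regulatory subunit Prkar1b at -1.42 (SE 0.13). Prkaca, Prkacb and Prkar1a differed by -0.37, -0.12 and -0.21. In the role of phosphatase regulation 7 of 9 were higher. Ppp1r1b, which encodes the phosphatase inhibitor DARPP-32, rose by 4.71 (SE 0.22), from 68.4 to 1788 CPM, and Arpp21, Ppp3ca and Arpp19 were higher by 1.70, 0.71 and 0.38. Phosphodiesterases, which break cyclic nucleotides down, were higher in 4 of 5 tested. Pde10a rose by 4.69 (SE 0.22), Pde1b by 3.35, Pde7b by 2.49 and Pde4b by 0.48.

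Regulators that end receptor signals went both ways. Of 8 RGS proteins and their partners, 6 were higher and 1 lower, and Rgs9, a striatal accelerator of G protein inactivation, rose by 6.89 (SE 0.23), from 4.51 to 538 CPM. Rgs7bp (0.72) and Gpr158 (0.59) were higher, and Rgs4 (0.17, adjusted p = 0.270 by edgeR) did not pass. Receptor kinases and arrestins were lower in 5 of 7 and higher in 0, with Grk2 at -0.96 (SE 0.12), Grk3 at -0.94, Arrb1 at -0.18 and Grk6 at -0.11. Among 15 receptor-associated proteins 8 were higher and 5 lower, including Ppp1r9b (0.30), Nsf (-0.68) and Epb41l1 (0.08).

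For genotype, 0 of 71 partners were called by edgeR in frontal cortex and 0 of 70 in striatum, and 5 in each region had an unadjusted p under 0.05. Over all genes 0.38% and 0.036% were called, and 13.5% and 10.1% had an unadjusted p under 0.05. The likelihood ratio test and DESeq2 each called 2 in frontal cortex, Adcy5 and Kcnj9, which were named after their values were seen, and 0 in striatum. Over all 13936 genes tested in frontal cortex these tools called 232 and 247, far more than edgeR, so the edgeR share is no measure for these 2 calls. By edgeR Adcy5 had a log2 difference of 0.15 (SE 0.03, adjusted p = 0.0604) in frontal cortex, from 146 ± 7.47 CPM in wild-type to 161 ± 4.61 CPM in Igf2enh-/- mice (SD, n = 6 each). Kcnj9, a subunit of the potassium channels that Gi-coupled receptors open, had a log2 difference of -0.18 by either of the other tools (adjusted p = 0.0441 and 0.0342).

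**Figure D5:**
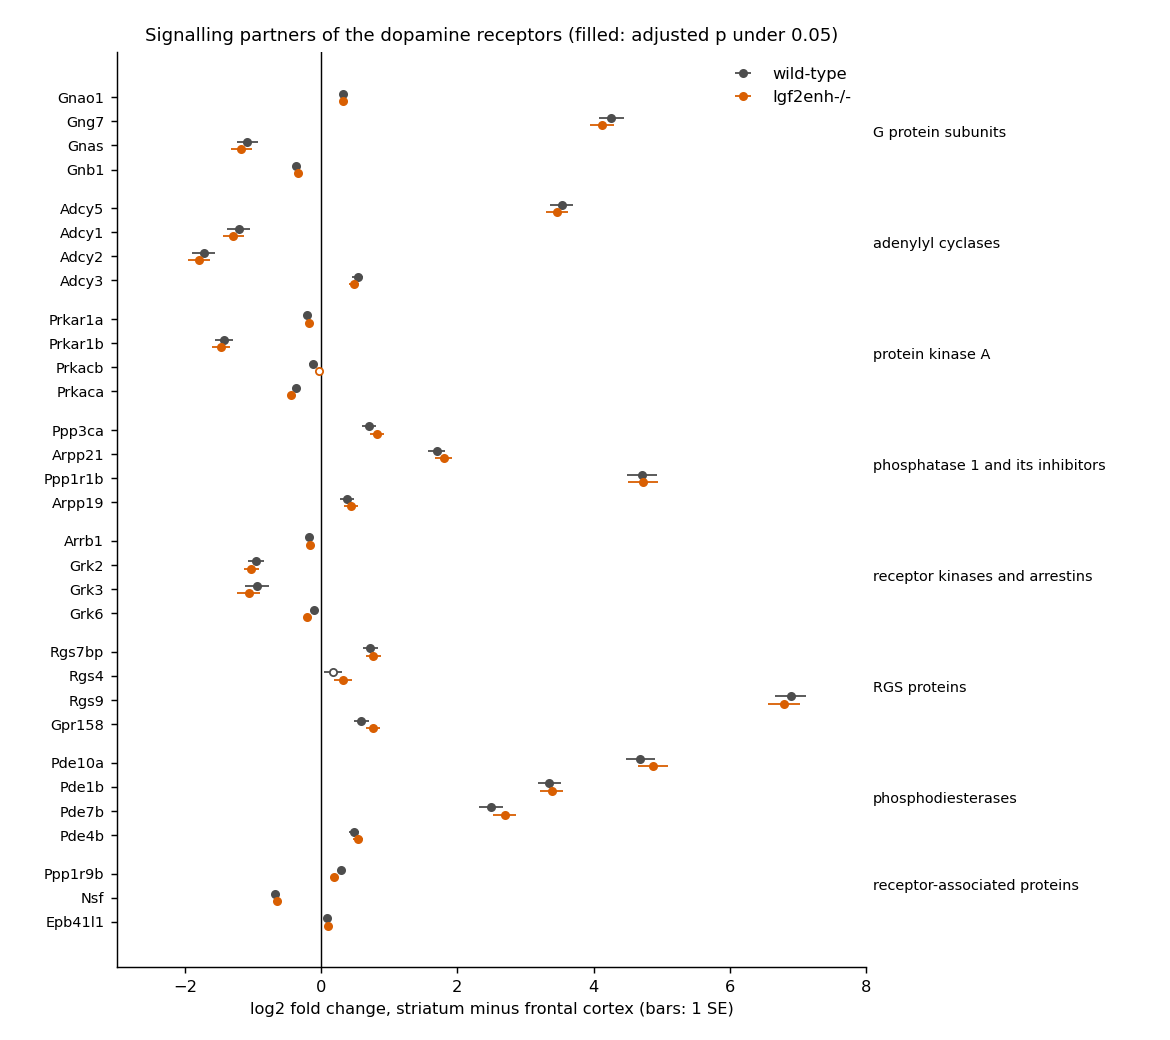
Log2 fold change between striatum and frontal cortex of the most abundant partners in each role (4 in each, and 3 receptor-associated proteins), in wild-type (grey) and Igf2enh-/- mice (orange), with bars of 1 SE and filled points where the adjusted p is under 0.05. Rgs9 lies farthest to the right at 6.89 in wild-type mice, followed by Ppp1r1b, Pde10a, Gng7, Adcy5, Pde1b and Pde7b, and Adcy2 (-1.73) and Prkar1b (-1.42) lie farthest to the left.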

How the data were processed

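From 75 bp single-end reads of ribosome-depleted RNA, trimmed (Trim Galore 0.5.0) and mapped to GRCm38 by STAR, the authors deposited raw read counts per gene of GENCODE vM15. Whether strand was used in counting is not given in the sources used here. The tables held 0 columns of other series, and 0 library pairs had identical counts. Of 133 listed genes 129 were matched, with symbols and lengths from GENCODE vM1 and sequences from RefSeq.

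Counts were tested with edgeR 4.0.16 (TMM, quasi-likelihood F-test, sex as covariate, Benjamini-Hochberg over all genes tested). Genotype was tested within a region on genes that reached 1 CPM in all libraries of that region, and regions in a fit of 27 libraries after filterByExpr. Receptors under a filter were taken from a fit without it. Calls used an adjusted p of 0.05. Alternatives were the likelihood ratio test, DESeq2 1.42.0, other scalings and filters, a model without sex, and leaving out each library. Single values were compared by exact permutation of log2(CPM + 0.5) over libraries. Libraries were taken as separate mice within a region; the labels do not tie regions to mice, and p-values measure the spread between these libraries.

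Named genes are the 5 receptors, the 4 partners of highest mean CPM per role (3 for receptor-associated proteins) and the 5 genes most like Drd1 and Drd2. Results of 2 listed genes are not reported here. Members and lists were chosen with earlier results of these data known. On simulated counts with 200 of 13785 genes changed by 0.80 (log2), the genotype test in frontal cortex recovered 97.5%, with 10 false calls. In striatum, with 200 of 13762 genes changed, it recovered 98.5%, with 12 false calls. Recovery at the receptors' own counts and spread between libraries was not tested.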

Additional observations from a re-analysis of the deposited data

Results flagged for a closer look

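Each receptor, and the Drd1 to Drd2 ratio, was examined by group for a library that stood apart from the rest (Dixon's gap over the range of log2 values). All 4 groups were used, apart from Drd3, which was at 0 in frontal cortex and was examined in striatum alone. Of 22 groups so examined 3 were flagged, where chance flags about 1 in 20. For Drd2 in Igf2enh-/- frontal cortex, library 1 stood highest at 1.62 CPM, with a gap of 0.919 of the group's range, and the log2 genotype difference of Drd2 ran from 0.33 to 0.48 (0.42 with all libraries) when a library was left out. For Drd4 in Igf2enh-/- striatum, library 23 stood highest at 0.268 CPM (9 reads), with a gap of 0.621 of the range. For the Drd1 to Drd2 log2 ratio in Igf2enh-/- striatum, library 13 stood lowest at -0.21, with a gap of 0.709 of the range. Library 20, lowest in striatum for all 5 receptors, was not flagged by this measure in its group for any of them.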

How the results depend on the processing

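No paired analysis was possible because each library number is used once and nothing in the labels links a cortical library to a striatal library of the same animal. The calls of Drd1 and Drd2 between regions and of Drd4 in wild-type mice kept their side of the threshold under every alternative compared. So did the missing genotype calls of the count fits, for 4 receptors in frontal cortex, where Drd3 was not tested, and 5 in striatum. For Drd5 in frontal cortex this holds for the filtered fit. Without a filter its adjusted p was 0.052, and leaving out libraries from that fit was not examined. Counts of genes called moved more. In frontal cortex 53 genes were called for genotype, 247 by DESeq2, 232 by the likelihood ratio test and 459 without a filter, and 8 to 96 when a library was left out. In striatum 5 genes were called, 112 by DESeq2, 56 by the likelihood ratio test, 13 with filterByExpr, 10 without a filter, 3 without sex in the model, 64 with the cortical marker covariate added after the data were seen, and 3 to 8 when a library was left out. The frontal cortex count was highest without library 1 (96) or 7 (84), and was 8 to 32 without library 4, 6, 8, 9, 10, 11 or 12. The striatal count was 8 without library 23 and 3 without library 18, 19, 21, 24, 25 or 27. The cause of these moves was not tested. Differences close to 0 changed sign. Drd1 for genotype in striatum (0.0020) was -0.0015 with filterByExpr, -0.0026 without a filter, and -0.11 to 0.10 when a library was left out. Set against the medium spiny neuron list, its exact test gave -0.041 in place of 0.07, while Drd2 passed with 0.10.

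When each library was left out in turn, the log2 difference for genotype ran from -0.086 to 0.078 for Drd1 in frontal cortex and from -0.10 to 0.44 for Drd3, -0.56 to -0.21 for Drd4, 0.05 to 0.27 for Drd2 and -0.27 to -0.11 for Drd5 in striatum. The difference of genotype effects of Drd1 between regions ran from -0.10 to 0.10. For sex, Drd2 in frontal cortex ran from -0.10 to 0.082, Drd3 in striatum from -0.27 to 0.16 and Drd5 in striatum from -0.030 to 0.13. Between regions Drd5 ran from 0.35 to 0.56 in wild-type mice and Drd4 from -1.10 to -0.80 in Igf2enh-/- mice. The Drd1 to Drd2 ratio in striatum ran from -0.17 to -0.10. The low counts of Drd3, Drd4 and frontal cortex Drd2 limit what their tests can show.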

Other observations

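Genes that make, carry and break down dopamine were followed beside its receptors, as a list of 8 fixed with earlier results known. Between regions in wild-type mice 5 of 7 tested were called, all higher in striatum, where 32.6% of all genes were. Th, the rate-limiting enzyme of dopamine synthesis, measured 0.868 ± 0.18 CPM in frontal cortex (SD, n = 6) and 4.68 ± 1.32 CPM in striatum (SD, n = 7), a log2 difference of 2.42 (SE 0.37). Ddc, which makes dopamine from L-DOPA, was higher by 1.15 (SE 0.12). Slc18a2, the vesicular monoamine transporter, was called too, but its frontal cortex libraries (0.0387 to 0.229 CPM) lay near the floor of 3 counts, and it ran from 0.313 to 4.30 CPM in striatum. Of the monoamine oxidases, Maob was higher by 0.18 (SE 0.07), and Maoa (0.08, adjusted p = 0.118 by edgeR) did not pass. Slc6a3, the dopamine transporter of midbrain neurons, was at or under 0.464 CPM in every wild-type library. For genotype, edgeR tested 4 of these genes in frontal cortex and 5 in striatum, and 0 were called by edgeR, the likelihood ratio test or DESeq2, and 0 in each region had an unadjusted p under 0.05. Th in striatum had a log2 difference of 0.16 (SE 0.16, adjusted p = 0.812). In frontal cortex Th was under the filter of 1 CPM, at 0.681 CPM in its lowest wild-type library, and was not among the genes tested. It measured 1.64 ± 1.80 CPM in Igf2enh-/- frontal cortex (SD, n = 6), with a highest value of 5.30 CPM.

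Markers of the striatal pathways moved with the receptors between regions. All 5 direct pathway markers, 4 indirect pathway markers and 10 markers of both pathways were called higher in wild-type striatum, where 32.6% of all genes were, with median log2 differences of 1.49, 5.81 and 3.74. Of the direct pathway markers, Isl1 was at 0 in every wild-type frontal cortex library, and it passed the filter through striatum. For genotype in striatum their medians were 0.02, 0.06 and 0.05, and without library 20 -0.10, -0.04 and -0.04, with 0 called by edgeR either way. Cholinergic interneuron markers, of which 2 of 4 were matched, summed to 30.0 to 99.7 CPM in wild-type striatum and 46.1 to 79.3 CPM in Igf2enh-/- striatum. Midbrain dopamine neuron markers summed to 15.4 to 90.3 CPM and 38.0 to 73.2 CPM in the same groups, most of it from Nr4a2 (means 30.0 and 38.7 CPM), while Slc6a3 had means of 0.195 and 0.113 CPM. Olfactory bulb markers summed to 28.3 to 82.7 CPM and 53.6 to 89.7 CPM. Most of that came from Cdhr1 (means 63.0 and 73.0 CPM), while Eomes had means of 0.166 and 0.470 CPM. In frontal cortex their sum was highest in library 9, an Igf2enh-/- male, at 79.6 CPM, followed by 35.7 CPM in library 3. Library 9 was also the highest frontal cortex library for Drd5 (4.33 CPM). A link between these values was not tested.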
